A study of Mus musculus with 1920 samples.

Results

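The genes of MHC class II peptide presentation were followed in single mouse microglia: the invariant chain gene Cd74, the class II chain genes H2-Aa, H2-Ab1 and H2-Eb1, the peptide-exchange genes H2-DMa and H2-DMb1, and the transactivator gene Ciita. They were chosen by name and matched by Ensembl identifier, which gave 7 of the 48709 gene entries in the count table. All mice were CD1, an outbred stock, aged 16 weeks. Cells of untreated mice came from 6 regions: spinal cord, corpus callosum, facial nucleus, cerebellum, hippocampus and cortex. The injured animals were sampled 3 or 14 days after facial nerve axotomy, in which the nerve to the face is cut, or, in corpus callosum, at the demyelination or the remyelination stage of treatment with cuprizone, a copper chelator. For the axotomy cells the tissue label names the facial nerve and the source label the facial nucleus, and they are set here beside untreated facial nucleus. Each of the 10 groups has 4 mice by its labels, although the design text of the series gives 3 to 4 animals a condition and says that the untreated regions came from the same animals. The labels do not tie mouse numbers across regions, so regional tests treat the sums as separate, and p-values measure the spread between these mouse-labelled samples.

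MHC class II molecules are pairs of an alpha and a beta chain that carry peptides from ingested proteins to the cell surface, where CD4+ T cells read them. The product of Cd74 escorts newly made pairs and blocks their groove, cathepsins cut it away, and the H2-DM pair then exchanges the remaining fragment for other peptides. CIITA is the coactivator that turns these genes on together in most cells, often after interferon-gamma. Microglia of the undisturbed brain carry little surface class II, which is widely used as a mark of their activation, while border macrophages, dendritic cells and B cells carry more.

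Cells were sorted 1 per well on 5 plates with 2 groups each, and every injured group sat on another plate than its untreated region, so plate and treatment cannot be told apart in those comparisons. Of 1900 wells labelled as cells, 1644 were kept, and their counts were summed per mouse and group into 40 sums of 5298853 to 19964472 counts. The 12 microglia markers summed to between 28495 and 69111 CPM (a gene's counts scaled to a common library total) in these 40 sums, and all 12 were read in every group. Remyelination stood apart in quality measures: 67.9% of its wells were kept against 81.1% to 95.3% elsewhere, and its cells had a median of 1517 detected genes against 2926 in untreated corpus callosum and a median spike-in share of 18.4% against 8.5%. Of 20 wells without a cell, 5 held Cd74 reads (at most 3 in a well) and 2 held a single H2-Aa read. By plate, Cd74 was read in 3 of 4 such wells on the cuprizone plate, at 1 read at most. It was read in 1 of 4 on the axotomy plate, 1 of 4 on the corpus callosum and spinal cord plate, and 0 of 4 on the others. The H2-Aa reads were in 1 well of the cuprizone plate and 1 of the axotomy plate. H2-Ab1, H2-Eb1 and Ciita were read in none of them. On the cuprizone plate 33.1% of cells held between 1 and 9 Cd74 reads and 17.2% held as few H2-Aa reads, against at most 3.83% and 1.18% on the other plates. Whether such low counts came from the cell in the well was not tested, and shares of cells below are therefore given for 10 or more reads in a cell.

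In the GRCm38 build, H2-DMa (ENSMUSG00000037649, chr17:34135182-34139101), H2-DMb1 (ENSMUSG00000079547, chr17:34153072-34160230), H2-Ab1 (ENSMUSG00000073421, chr17:34263209-34269418), H2-Aa (ENSMUSG00000036594, chr17:34282744-34287827, minus strand) and H2-Eb1 (ENSMUSG00000060586, chr17:34305877-34316199) lie close together in the MHC on chromosome 17. All but H2-Aa are on the plus strand. Counts are of exon reads over whole genes. Exons of H2-DMa share 360 bases with Brd2 on the opposite strand, so reads there cannot be assigned with certainty. H2-DMb1 and its near-identical neighbour H2-DMb2 can share reads, so their split is uncertain too.

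RefSeq promoter entries of the GRCm38.p6 assembly were matched for 4 of the 7 members (H2-Aa, H2-Eb1, H2-DMa and H2-DMb1), and those of H2-Aa and H2-Eb1 are shown because these chains are among the 4 members whose remyelination and control mice did not overlap, as given below. Both stretches run from 140 to 21 bases before the annotated start, 5′ to 3′ on the gene's strand. Capitals mark TGATTGG, the letters of the Y box bound by NF-Y, and AGCAAC, a core of the X box bound by RFX.
H2-Aa (chr17:34287844-34287963, minus strand): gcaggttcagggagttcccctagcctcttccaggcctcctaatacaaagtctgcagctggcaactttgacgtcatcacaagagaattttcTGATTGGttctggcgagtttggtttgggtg
H2-Eb1 (chr17:34305727-34305846, plus strand): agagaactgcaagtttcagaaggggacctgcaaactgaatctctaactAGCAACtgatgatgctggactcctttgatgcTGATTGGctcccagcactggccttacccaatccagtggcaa
The letters TGATTGG began 50 bases before the start of H2-Aa, 61 before H2-Eb1 and 63 before H2-DMb1, all on the gene's own strand, and were not in the 250 bases before the 2 RefSeq starts of H2-DMa. Both of those starts lie upstream of the H2-DMa gene start given above, and the bases directly before that one were not searched. The RefSeq start of H2-DMb1 lies inside the gene span given above, and so does its TGATTGG. With both strands searched, TGATTGG stood in 7.23% of 32851 promoter entries over the same 250 bases. AGCAAC stood in H2-Eb1 alone of the 4 members, 92 bases before the start, and in 12.2% of all entries. TGATTGG contains ATTGG, which stood in 33.8% of entries. These matches describe the letters and not binding.

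The other members lie outside the MHC, both on the plus strand: Cd74 (ENSMUSG00000024610, chr18:60803848-60812646) and Ciita (ENSMUSG00000022504, chr16:10488178-10527564). Exons of Ciita share 329 bases with Dexi on the opposite strand, and Cd74 shares 12 bases with Mir5107, so reads there are uncertain as well.

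In untreated corpus callosum the peptide-exchange genes had higher mean levels than the antigen-presenting chains. Per kilobase of exon, the mean level in untreated corpus callosum was 140 CPM for H2-DMa and 110 for H2-DMb1, against 35.4 for H2-Ab1, 27.5 for Cd74, 1.72 for H2-Aa, 1.1 for Ciita and 0.303 for H2-Eb1. All other levels are CPM per gene, scaled for library composition over the 40 sums, as mean ± SD over 4 mice.

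Cd74 varied widely between mice within the untreated regions and did not pass the test of a regional difference (edgeR adjusted p = 0.787). Its mean ran from 13.3 ± 7.52 CPM in cortex through cerebellum (22.2 ± 7.9), corpus callosum (38.7 ± 45.9), facial nucleus (50.4 ± 49.9) and hippocampus (61.7 ± 85.6) to spinal cord (68.2 ± 30.4). The hippocampal mice stood at 0, 58.5, 4.56 and 184 CPM, so that region held both the lowest and the highest single value. H2-Ab1, the beta chain of the I-A molecule, lay between 22.5 ± 16.6 CPM in cortex and 69.3 ± 23.1 in hippocampus. H2-Aa, the alpha chain of I-A, was nearly unread in untreated mice: hippocampus had 0 counts in all 4 mice, which allows a level of up to 0.0751 CPM over the group (3 counts, counting error only), and the highest regional mean was 4.7 ± 6.91 CPM in spinal cord. H2-Eb1, the beta chain of the I-E molecule, had a mean under 1 CPM in 5 regions and 6.94 ± 11.3 in hippocampus, where mouse 4 at 23.9 CPM stood above the other 3 (0.729 to 2.33).

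H2-DMa had the lowest p of the members among the regions. Cortical mice stood at 104, 81.5, 92.2 and 90.5 CPM, and hippocampus followed at 105 ± 43.7. Facial nucleus (156 ± 36.4) and cerebellum (161 ± 80.2) came next. Corpus callosum mice stood at 322, 225, 210 and 161 CPM and spinal cord mice at 345, 191, 397 and 253. Every mouse of these 2 groups was above every cortical mouse. The share of all genes that did so was not computed, so this does not set H2-DMa apart. These 2 groups shared a plate that held no cortical cells. The 2 regions with the lowest means also shared a plate, and so did the 2 in the middle. The order of the H2-DMa means therefore followed the plates, and region and plate cannot be told apart here. The same limit holds for the test among the 6 regions, except between regions of 1 plate. None of the 7 members passed the test of any difference among the 6 regions (edgeR quasi-likelihood F test, adjusted p = 0.12 for H2-DMa with unadjusted p = 0.000189, and 0.401 for H2-DMb1), where 0.1% of the 22907 genes tested did. H2-DMa and H2-DMb1 were the 2 members with an unadjusted p under 0.05, for which the share of all genes is not given here. The regions on 1 plate gave no call for a member either, with 0.0% of genes called between cortex and hippocampus, 0.00437% between cerebellum and facial nucleus and 0.0% between spinal cord and corpus callosum, and with 0 members at an unadjusted p under 0.05 in each. H2-DMa passed when each cell was thinned to 20000 counts, and H2-DMa and H2-DMb1 with DESeq2. Among the 6 regions these settings called 25 and 200 genes in all, against 23 in the main fit.

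Cd74 rose in demyelination. The 4 mice stood at 597, 149, 987 and 482 CPM, against 24.5, 22.5, 106 and 2.05 in untreated corpus callosum, so the groups did not overlap. The means were 554 ± 346 and 38.7 ± 45.9 CPM, and the fitted log2 fold change was 3.84 ± 1.01 (SE; edgeR adjusted p = 0.0478, n = 4 mice each), a 14.3-fold difference. It was the 1 member of 7 called, where 5.16% of 14057 genes were called in either direction and 3.08% as higher; 8.88% of genes were higher with no overlap of the mice. Leaving out any 1 of the 8 mice other than corpus callosum mouse 3 ended the call, with log2 fold changes of 3.42 to 5.06 over all 8 omissions. The call was also lost with at least 100000 counts per cell, after thinning, with all 10 groups in the fit, with the replicate block, and when fewer than 10 reads of a member in a cell were set to 0, where H2-Eb1 was called instead.

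The class II chains were uneven in demyelination. H2-Aa was 13.4, 0.794, 373 and 53.1 CPM in the 4 mice against 1.22 to 4.34 in untreated corpus callosum (log2 fold change 5.07 ± 1.49, edgeR adjusted p = 0.0625). H2-Eb1 was 0.551, 3.39, 78.1 and 1.44 CPM against at most 0.781 (5.80 ± 1.89, edgeR adjusted p = 0.079). Both were highest in mouse 3, and neither passed the test. H2-Ab1 stood at 121 ± 115 CPM against 57.9 ± 39.5, with overlapping mice (1.06 ± 1.02, edgeR adjusted p = 0.651). H2-DMa had its highest mean of all groups here, 428 ± 154 CPM, with mice at 351, 620, 474 and 265. It overlapped the untreated mice (0.87 ± 0.38, edgeR adjusted p = 0.202). The median log2 fold change over the 7 members was 1.06, beside -0.33 over all genes tested.

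In remyelination Cd74 and H2-Aa rose, with the same corpus callosum mice as controls. Cd74 stood at 631, 9438, 6232 and 2688 CPM in the 4 mice, a mean of 4747 ± 3890. The log2 fold change against untreated corpus callosum was 6.95 ± 1.16 (edgeR adjusted p = 0.00359), a 124-fold difference. H2-Aa stood at 41.7, 3208, 1854 and 865 CPM against 4.25, 1.22, 4.34 and 3.07 (8.84 ± 1.75, edgeR adjusted p = 0.0122, 457-fold). Mouse 1 was the lowest of the 4 for both genes and still above every untreated mouse. For H2-Aa this rested on 1 cell, the only one of mouse 1 with 10 or more reads. With that cell set aside, mouse 1 stood at 0.292 CPM, below every corpus callosum control.

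H2-Ab1 in remyelination was 207, 1885, 1727 and 318 CPM against 69.2, 90.8, 71.1 and 0.511, a mean of 1034 ± 895 (4.15 ± 1.15, edgeR adjusted p = 0.0623). H2-Eb1 was 2.54, 34.8, 20.3 and 249 CPM against at most 0.781 (7.67 ± 2.06, edgeR adjusted p = 0.0536). Neither passed the threshold of 0.05, although for Cd74, H2-Aa, H2-Ab1 and H2-Eb1 alike the mice did not overlap, which held for 5.53% of all genes in that direction. H2-DMa (230 ± 115 CPM against 230 ± 67.5), H2-DMb1 (161 ± 100 against 163 ± 61.4) and Ciita (8.36 ± 9.64 against 5.77 ± 6.77) gave log2 fold changes of -0.01, -0.03 and 0.50 (edgeR adjusted p = 0.996, 0.99 and 0.952). In all, 2 of 7 members were called, where 3.12% of genes were called and 2.51% as higher. Of the 12 microglia markers 6 fell in remyelination, while in demyelination 7 fell and 1 rose; the part of this in the class II levels was not tested. The member median was 4.15, beside -0.31 over all genes. Cd74 kept its call in all 21 alternatives, while H2-Aa lost it in 7, among them leaving out corpus callosum mouse 1, 2 or 3 or remyelination mouse 3 or 4. DESeq2 called all 4, with a different balance over all genes: 40.3% of its 1572 calls were higher, against 80.6% of 438 in edgeR, and for demyelination 33.5% of 1945 against 59.7% of 725.

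**Figure D1:**
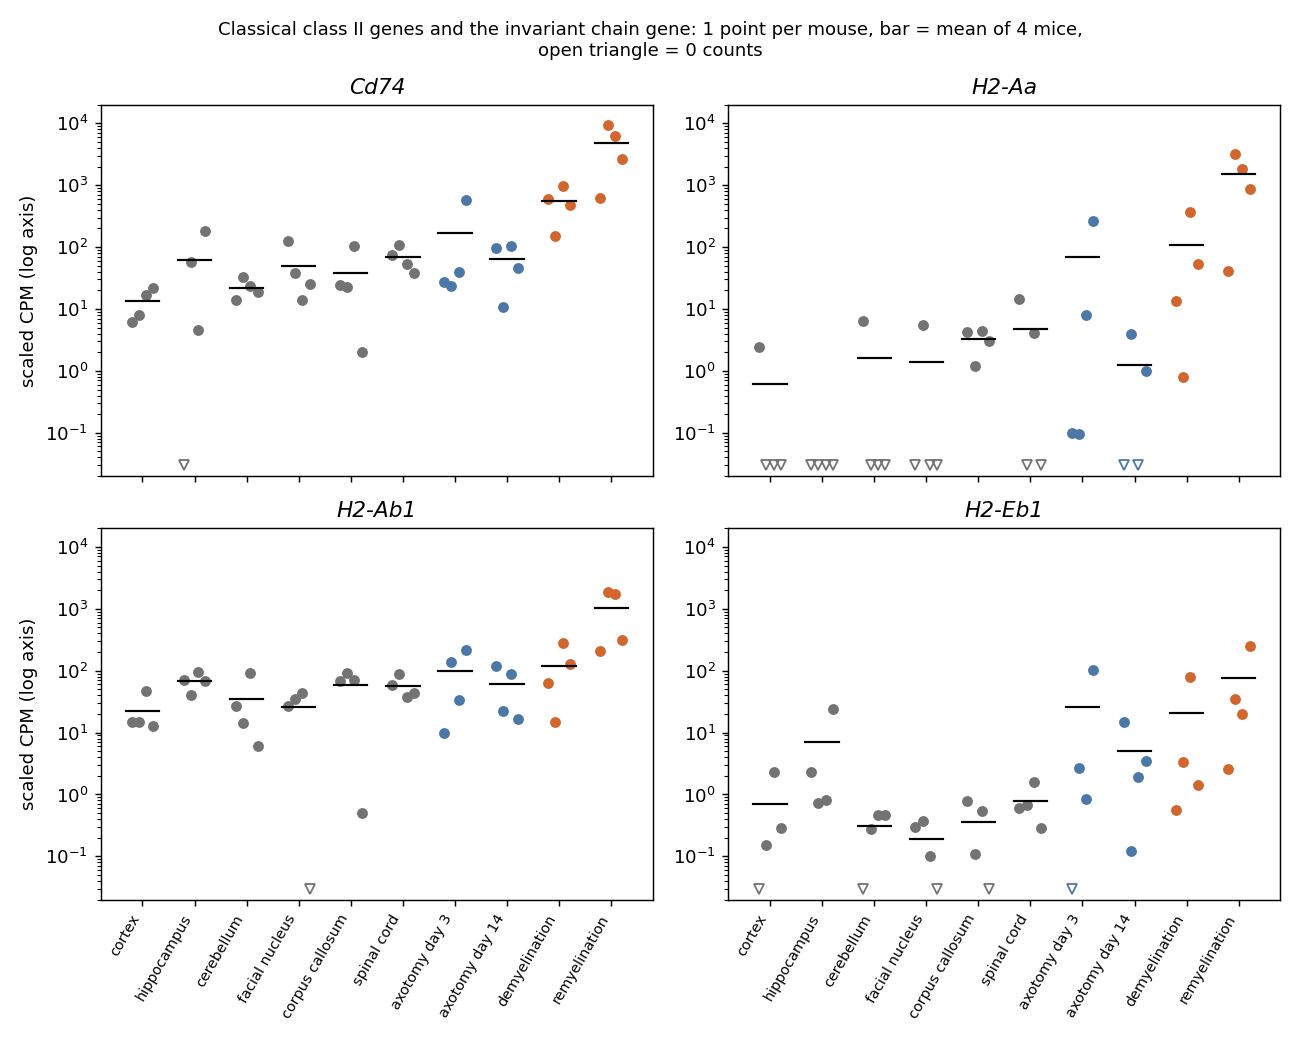
Scaled CPM on a log axis for Cd74, H2-Aa, H2-Ab1 and H2-Eb1 in 10 groups: each point is a mouse, the bar is the mean of 4 mice, and open triangles at the bottom are mice with 0 counts (grey, untreated regions; blue, axotomy; orange, cuprizone). Remyelination mice lie above all untreated corpus callosum mice in each panel, from 631 to 9438 CPM for Cd74, and axotomy day 3 has a single high mouse at 572 CPM.

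Remyelination and demyelination came from 1 plate. Between them Cd74 was 8.64-fold higher in remyelination (log2 fold change 3.11 ± 0.97), H2-Ab1 8.55-fold (3.10 ± 1.09) and H2-Aa 13.6-fold (3.76 ± 1.39), each with an edgeR adjusted p of 0.29, and H2-DMa differed by -0.88 ± 0.38 (adjusted p = 0.317). None of the 7 passed, where 0.0427% of genes did. These 4 had an unadjusted p under 0.05. The share of all genes at that p is not given here, so this does not set them apart. DESeq2, like edgeR without the filter on low counts, called Cd74, H2-Aa and H2-Ab1. These settings called 596 and 114 genes in all, against 6 in the main fit. Ordered by mean Cd74, remyelination and demyelination led, followed by axotomy day 3 (166 ± 271), spinal cord, axotomy day 14 (64 ± 44.2), hippocampus, facial nucleus, corpus callosum, cerebellum and cortex. The ranges of mice overlapped between all neighbours in that order.

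After axotomy no member changed by the test. At day 3 Cd74 stood at 27.3, 23.9, 40.1 and 572 CPM, against 124, 38.4, 14 and 25.4 in untreated facial nucleus, so the mean of the group was set by mouse 4. H2-Aa (0.101, 0.0959, 7.85 and 268 CPM) and H2-Eb1 (0, 2.69, 0.849 and 102 CPM) were high in the same mouse. The fitted log2 fold change was 1.69 ± 0.94 for Cd74, 5.58 ± 2.32 for H2-Aa and 6.98 ± 2.25 for H2-Eb1 (edgeR adjusted p = 0.743, 0.488 and 0.414). Without mouse 4 the value for Cd74 was -0.74.

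A single cell carried these values. In day 3 mouse 4, 1 cell with 162090 counts and 2348 genes held 5076 Cd74 reads, 97.4% of that mouse's total, 2436 H2-Aa reads (100%), 1968 H2-Ab1 reads (99.4%) and 924 H2-Eb1 reads (99.8%). It held 5.42% of the mouse's H2-DMa reads and no Ciita read. With that cell set aside, which was decided after its values were seen, the mouse stood at 14.9 CPM for Cd74.

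H2-DMb1 did not overlap between day 3 and either other group. The mice stood at 201, 134, 224 and 133 CPM at day 3, at 98.7, 112, 71.4 and 112 in untreated facial nucleus and at 109, 71.5, 116 and 84.9 at day 14. Every day 3 mouse was above every mouse of the other two. The log2 fold change was 0.83 ± 0.35 against facial nucleus and -0.87 ± 0.35 from day 3 to day 14 (edgeR adjusted p = 0.5 and 0.596). Among all genes, 3.1% were higher without overlap at day 3 and 2.32% were lower without overlap from day 3 to day 14. H2-DMb2, which may share reads with it, was 97.6 ± 34.6 CPM at day 3, 38.6 ± 14.3 in facial nucleus and 41.2 ± 18 at day 14. Ciita at day 14 (7.09, 6.12, 1.67 and 5.8 CPM) lay below every facial nucleus mouse (32.5, 16.1, 11.2 and 10.1), as 1.62% of genes did, with a log2 fold change of -1.76 ± 1.35 (edgeR adjusted p = 1.0).

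For the background of these tests, 0.145% of 19319 genes were called at day 3 against facial nucleus, 0.0% at day 14 and 0.0259% between the days. Of the members, 3, 1 and 2 had an unadjusted p under 0.05, a threshold for which the share of all genes is not given here. The injuries were compared as a difference between 2 effects. The Cd74 effect of remyelination exceeded that of day 14 by 6.61 ± 1.79 on the log2 scale (edgeR adjusted p = 0.0602) and that of H2-Aa by 9.08 ± 3.28 (adjusted p = 0.107), beside a median of -1.39 over all genes and with 0.846% of genes called. The Cd74 effect of demyelination exceeded that of day 3 by 2.17 ± 1.66 (adjusted p = 0.494), beside a median of -1.22 and with 0.281% of genes called. No member passed either test, 2 and 0 having an unadjusted p under 0.05, again without a share of all genes. DESeq2 called Cd74 and H2-Aa in the first, among 2870 genes called against 193 in edgeR.

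**Figure D2:**
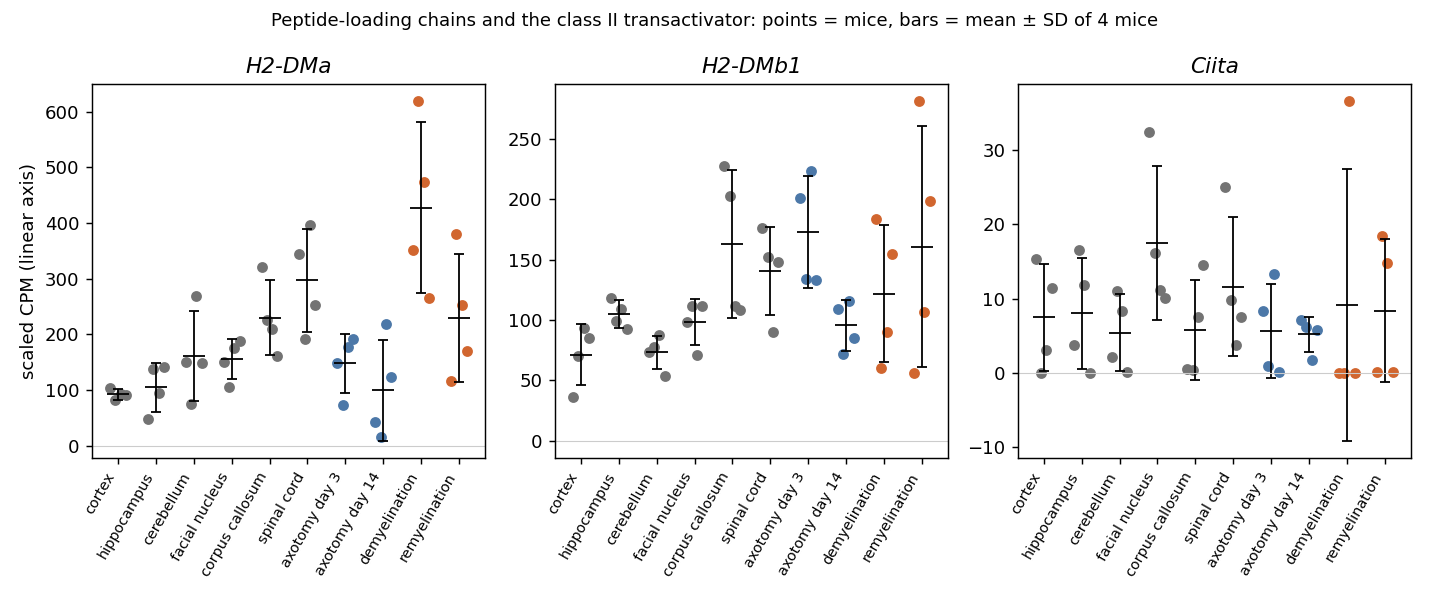
Scaled CPM on a linear axis for H2-DMa, H2-DMb1 and Ciita in 10 groups: points are mice and bars are mean ± SD of 4 mice, with the lower arm of the SD below 0 in some groups for Ciita. H2-DMa is lowest in cortex (92.1 ± 9.25) and highest in demyelination (428 ± 154), and Ciita in demyelination is a single mouse at 36.7 CPM.

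Ciita, which encodes the transactivator, had low levels in every group, from 5.17 ± 2.4 CPM at axotomy day 14 to 17.5 ± 10.4 in untreated facial nucleus. In demyelination 3 mice had 0 counts and mouse 3 had 36.7 CPM, all of it from 1 cell, which also held 10 or more reads of Cd74, H2-Aa, H2-Ab1 and H2-Eb1. In remyelination the mice stood at 0.141, 18.5, 14.8 and 0.1 CPM, so it was high in mice 2 and 3, which were also the highest for Cd74. In remyelination 3 of 129 cells held 10 or more Ciita reads, and all 3 also held Cd74 and H2-Aa at that level. Over the 40 sums the Spearman correlation of Ciita with Cd74 was -0.05. Among Cd74, H2-Aa, H2-Ab1 and H2-Eb1 the pairs ran from 0.33 (H2-Aa with H2-Eb1) to 0.71 (H2-Ab1 with H2-Eb1). Between these lay H2-Aa with H2-Ab1 at 0.42, Cd74 with H2-Aa at 0.52 and Cd74 with H2-Eb1 at 0.65. The sums share plates and, for regions, perhaps mice, so these are descriptions.

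Cd74 was also read in a larger share of cells. The share of cells with 10 or more Cd74 reads was 4.44%, 4.76%, 10.9% and 2.5% in the 4 untreated corpus callosum mice, 25%, 17.4%, 26.8% and 28.9% in demyelination and 34.5%, 57.6%, 75% and 38.7% in remyelination. The means were 5.64% ± 3.62, 24.5% ± 5.03 and 51.4% ± 18.6, and the 3 groups did not overlap in these unthinned counts. A share that was higher without overlap held for 6.33% of 14057 genes from untreated corpus callosum to demyelination, 1.91% to remyelination and 0.747% from demyelination to remyelination. In the other 7 groups the mean lay between 3.39% and 11.7%. With each cell thinned to 20000 counts and 1 read or more required, the 2 cuprizone groups stood at 27.7% ± 5.69 and 55.1% ± 22.2, and without thinning at 56.8% and 85.1%. After thinning these 2 groups overlapped: remyelination mouse 1 stood at 31%, below demyelination mice 3 and 4 at 31.7% and 31.6%.

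Levels within such cells varied widely. The median over cells with 10 or more Cd74 reads was 575 CPM in 10 cells of untreated corpus callosum, 378 CPM in 39 cells of demyelination and 2620 CPM in 68 cells of remyelination, where single cells ran from 15.8 to 29942 CPM. Per mouse it was 441, 622, 644 and 212 CPM over 1 to 5 cells, 999, 382, 378 and 145 over 8 to 11 cells, and 781, 8060, 2900 and 1860 over 10 to 27 cells. The minimum of 10 reads stands for 49.6, 21.2 and 26.1 CPM at the median depths of these groups and bears on the medians, so no test was made. H2-Aa at 10 or more reads was seen in 3.45%, 48.5%, 41.7% and 22.6% of cells of the remyelination mice, against 2.17% to 2.5% in untreated corpus callosum. H2-Ab1 was seen in 23.3% ± 11.8 of remyelination cells against 12.4% ± 8.64, with overlapping mice. H2-Eb1 was seen in 12.8% ± 6.62 against no cell of untreated corpus callosum.

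H2-DMa was read in a smaller share of remyelination cells, although its mean level was equal to that of untreated corpus callosum. Its share was 40%, 45.2%, 43.5% and 47.5% in untreated corpus callosum and 13.8%, 27.3%, 27.8% and 25.8% in remyelination, without overlap. A lower share without overlap was common, at 15.5% of 14057 genes, and at 20.9% after thinning, so it sets H2-DMa apart little. The median in those cells was 467 and 550 CPM. Demyelination stood at 48.9% ± 9.98. Remyelination cells also had the lowest median of detected genes of the 10 groups, and the part of this in the lower share was not tested; after thinning to 1 depth the shares were 45.7% ± 3.83 and 23.7% ± 7.02.

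**Figure D3:**
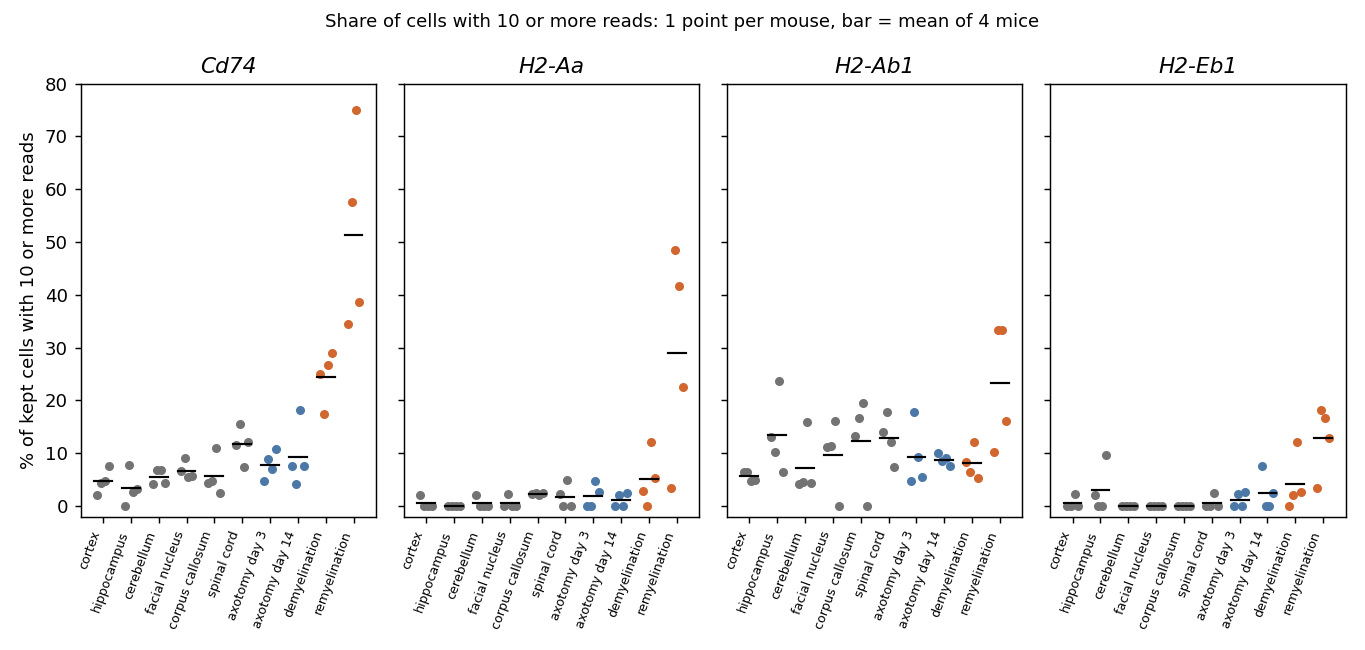
Percent of kept cells with 10 or more reads of Cd74, H2-Aa, H2-Ab1 or H2-Eb1 in 10 groups: each point is a mouse and the bar is the mean of 4 mice. For Cd74 the demyelination mice lie between 17.4% and 28.9% and the remyelination mice between 34.5% and 75%, above the corpus callosum mice at 2.5% to 10.9%.

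Cd74 and the I-A and I-E chains were often read in the same cells in remyelination. Of 68 remyelination cells with 10 or more Cd74 reads, 38 (55.9%) also held H2-Aa at that level, against 1.64% of the cells without Cd74. All 31 cells with H2-Ab1 and all 17 with H2-Eb1 also held Cd74, and 38 of 39 with H2-Aa did. H2-DMa was read in 26.5% of the Cd74 cells and 21.3% of the rest, in 43.6% of the H2-Aa cells and 15.6% of the rest, and in 38.7% of the H2-Ab1 cells and 19.4% of the rest. Among the 1015 cells of the 6 untreated regions, 64 held Cd74 and only 2 of these held H2-Aa. The Spearman correlation across cells was 0.75 between Cd74 and H2-Aa and 0.67 between Cd74 and H2-Ab1 over the 129 remyelination cells, 0.41 and 0.32 over the 161 demyelination cells, and 0.06 and 0.07 over the 1015 untreated cells. Cells of 1 mouse are not independent and most values are 0, so no test was made.

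A cell was called class II-high when at least 3 of the 4 genes Cd74, H2-Aa, H2-Ab1 and H2-Eb1 had a read after thinning to 20000 counts. This held for 37 of 1644 cells: 27 of 129 in remyelination (20.9%), 7 of 161 in demyelination (4.35%), 1 each at axotomy day 3, in hippocampus and in spinal cord, and none in the other 5 groups. The remyelination mice had 1, 11, 10 and 5 such cells and the demyelination mice 1, 0, 4 and 2. In remyelination they held 80.5% of Cd74 reads, 84.4% of H2-Aa, 95.9% of H2-Ab1 and 99.5% of H2-Eb1. They held 31.6% of H2-DMa reads and 39.6% of H2-DMb1 reads. The cells were chosen by reads of the first 4 genes and not of H2-DMa or H2-DMb1. The contrast therefore follows in part from the definition and carries no test.

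Cd74 was above control levels outside the class II-high cells too. Without those cells the remyelination mice stood at 614, 3497, 1232 and 387 CPM for Cd74 and the demyelination mice at 425, 149, 114 and 153, each above every untreated corpus callosum mouse. H2-Aa was 0.292, 911, 499 and 30.2 CPM in remyelination, above every control in 3 mice and below them in mouse 1. The means of H2-Ab1 (55.1 ± 65.5 CPM) and H2-Eb1 (0.574 ± 0.449) lay within the ranges of untreated regions. For H2-Ab1 the mice stood at 135, 2.03, 82.2 and 1 CPM, and mouse 1 was above every untreated mouse, of which the highest was 96.6 in hippocampus. These are values by the definition of the cells and carry no test.

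**Figure D4:**
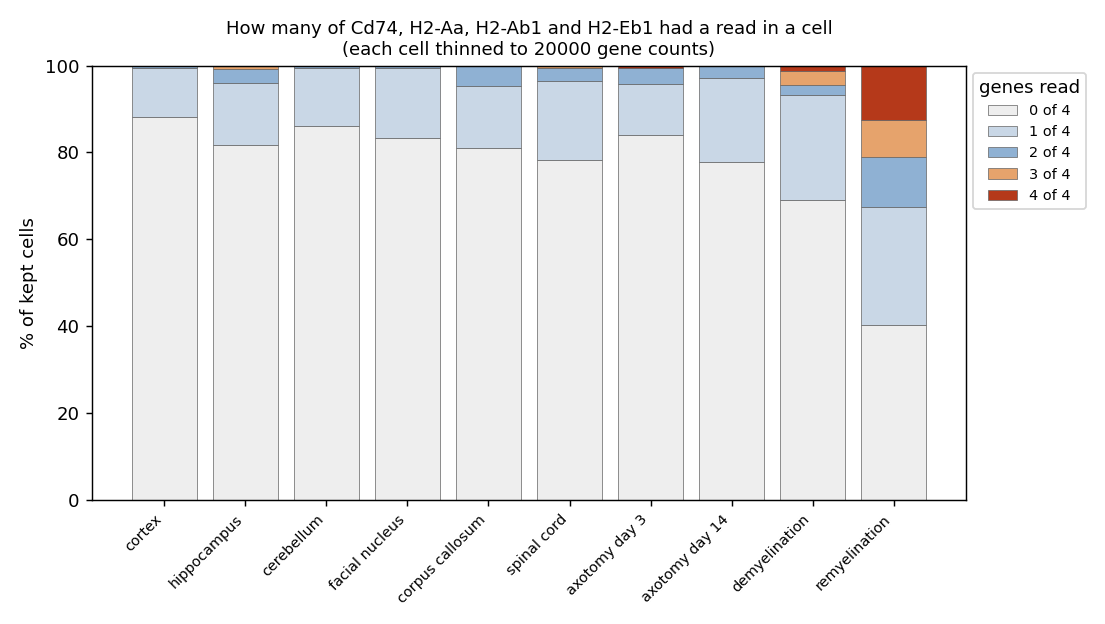
Stacked bars of the percent of kept cells in which 0 to 4 of the genes Cd74, H2-Aa, H2-Ab1 and H2-Eb1 had a read, with each cell thinned to 20000 gene counts, for 10 groups on a linear axis from 0. Cells with 3 or 4 of the genes make up 20.9% of remyelination and 4.35% of demyelination and are nearly absent elsewhere.

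The class II-high cells of remyelination had a lower mean level of P2ry12, the purinergic receptor of surveying microglia. They were compared with the other cells of the same mouse in mice 2, 3 and 4, which had 11, 10 and 5 class II-high cells beside 22, 26 and 26 others. Mean P2ry12 was 218, 175 and 890 CPM in the class II-high cells and 1759, 1121 and 2344 CPM in the others, lower in 3 of 3 mice. The share of cells with a P2ry12 read differed less. It was 45.5%, 30% and 60% in the class II-high cells and 54.5%, 42.3% and 57.7% in the others, so it was higher in mouse 4. The log2 fold change of P2ry12 was -2.53 ± 0.51 (edgeR, blocked by mouse, adjusted p = 0.00371), beside a median of -0.85 over the 3921 genes tested. It was the only gene called, 0.0255% of those tested, and 102 had an unadjusted p under 0.05. The call was lost with DESeq2, without the block, and when mouse 2 or mouse 3 was left out, with log2 fold changes between -2.85 and -2.02 over all alternatives.

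Some other genes had the same direction in 3 of 3 mice without passing. Apoe, the lipid carrier, stood at 170586, 159305 and 178830 CPM in the class II-high cells and at 99864, 97394 and 109373 CPM in the others (0.57 ± 0.19, edgeR adjusted p = 0.999). Cx3cr1, the fractalkine receptor, was -0.97 ± 0.41, and 11 of the 12 microglia markers had a log2 fold change below 0, with a list median of -0.81 that was close to the median of all genes. Lyz2, which encodes lysozyme, was 1.17 ± 0.29 (adjusted p = 0.0828) and Cybb, a subunit of the phagocyte NADPH oxidase, 1.89 ± 0.48 (adjusted p = 0.0946), higher in 3 of 3 mice. Apoe, Lyz2 and Cybb were called with 2 of the 4 genes required, with another random seed, with upper-quartile scaling and without mouse 4, and Apoe and Cybb also with full counts. Ctss, the cathepsin that removes most of the invariant chain, was -0.16 ± 0.27. The class II-high cells had a median of 1706 detected genes against 1484.5 in the others and a spike-in share of 13.9% against 21.7%. The part of these in the difference was not tested.

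**Figure D5:**
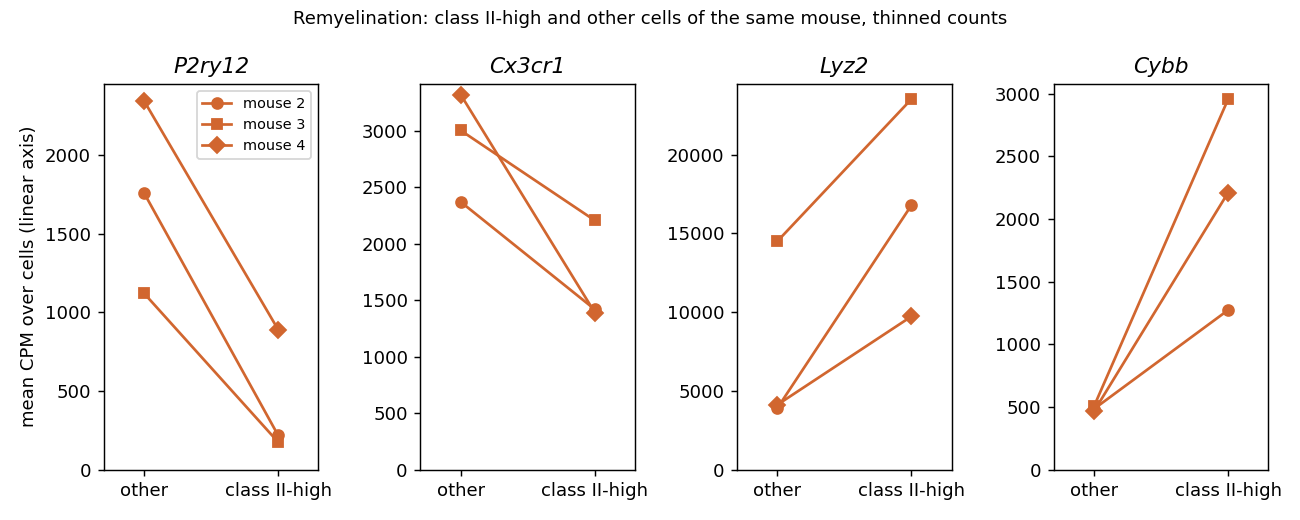
Mean CPM (linear axes from 0, thinned counts) of P2ry12, Cx3cr1, Lyz2 and Cybb in the other and the class II-high cells of remyelination mice 2, 3 and 4, with a line for each mouse. P2ry12 falls from 1759, 1121 and 2344 to 218, 175 and 890 CPM, and only P2ry12 passed the edgeR test.

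Cell types that normally carry class II were looked for in the same cells. Of the 27 class II-high remyelination cells, 26 had reads of 3 or more of the 12 microglia markers after thinning, and none had reads of 3 or more markers of border macrophages, monocytes, dendritic cells, B cells, T and NK cells or neutrophils. Mrc1 (which encodes CD206, a stain used in the sort), Lyve1 and Cd163 had 10 reads in none of them, nor did the dendritic cell markers Flt3 and Zbtb46 or the B cell markers Cd79a and Ms4a1. Lyve1 and Cd163 had 10 reads in none of the 102 other remyelination cells either. Other markers of these types did reach 10 reads in some class II-high cell: 4 of 9 for border macrophages, 4 of 9 for monocytes, 2 of 10 for dendritic cells and 3 of 7 for B cells, with sums in single cells of up to 1505, 1277, 551 and 2679 CPM. At the level of mice, the 9 border macrophage markers summed to 14.3 to 50.5 CPM in untreated corpus callosum, 33.3 to 296 in demyelination and 228 to 563 in remyelination. Ms4a7 was called as higher in remyelination and Fn1 in both stages. Most of the border macrophage sum in remyelination was Ms4a7 (221 CPM) and Siglec1 (75.9 CPM, against 19.7 in untreated corpus callosum). Mrc1 had a mean of 41.7 CPM against 2.29 and Clec12a 25.3 against 5.43, while Lyve1 and Cd163 had 0 counts. The 9 monocyte markers summed to 14.9 to 172, 609 to 2216 and 10.7 to 384 CPM, with Ly6c2 at 0 in both cuprizone groups and Fn1 at 1216 CPM in demyelination. The 10 dendritic cell markers summed to 48.1 to 175 CPM in untreated corpus callosum, 1.83 to 37.1 in demyelination and 0.141 to 63.9 in remyelination. The 7 B cell markers summed to 396 to 912, 476 to 590 and 196 to 529 CPM. The part of Ms4a7, Siglec1, Mrc1 and Fn1 in the class II levels was not tested.

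The alpha chain of I-E was read in few mice. In many inbred strains H2-Ea does not make a chain, and the annotation carries it as the pseudogene H2-Ea-ps. It had 0 counts in 31 of 40 sums and 10 or more counts in 6. Demyelination mouse 3 had 630 counts (48.1 CPM) and remyelination mouse 4 had 1089 (109 CPM), which were also the mice with the highest H2-Eb1 of their groups. In those mice H2-Eb1 per kilobase was 38.8 and 108 for every 100 of H2-Ab1, against 1.62 to 2.55 in the other remyelination mice. High ratios also stood beside 0 counts of H2-Ea-ps: 31.2 in demyelination mouse 2, 64.7 in axotomy day 3 mouse 4, 29.4 in axotomy day 14 mouse 4 and 47.6 in hippocampus mouse 4. The reverse was seen too: corpus callosum mouse 4 had 56 counts of it with no H2-Eb1 count. No genotype is given in the labels.

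Some genes of antigen processing and co-stimulation rose in the cuprizone stages. Of 13 on the list, 12 were tested in the cuprizone fit, and most did not pass. Over all 14057 genes, 3.08% were called as higher in demyelination and 2.51% in remyelination, and 5.16% and 3.12% in either direction. In demyelination 4 of 12 rose and 1 fell: the lysosomal proteases Ctsb (log2 fold change 3.19 ± 0.18, edgeR adjusted p = 2.87e-08), Ctsd (2.77 ± 0.14, 5.09e-09) and Ctsl (2.43 ± 0.18, 7.04e-07) and Cd83, a surface protein that stabilises class II (1.96 ± 0.46, 0.0219), were higher, and the asparagine protease Lgmn was lower (-0.57 ± 0.14, 0.0244). In remyelination 5 of 12 rose: Cd83 (2.58 ± 0.47, 0.00406), Ctsb (2.38 ± 0.18, 8.76e-07), Ctsd (1.66 ± 0.13, 1.89e-06), Ctsl (1.64 ± 0.18, 3.51e-05) and Ctss (0.84 ± 0.14, 0.00191). Ctsd was lower in remyelination than in demyelination (-1.10 ± 0.13, edgeR adjusted p = 0.00226). The list medians were 0.41 and 0.64, beside -0.33 and -0.31 over all genes. Leaving out any 1 mouse other than corpus callosum mouse 4 ended the call for Lgmn, and leaving out corpus callosum mouse 2 or 4 or demyelination mouse 3 ended that for Cd83 in demyelination.

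At day 3 after axotomy 2 of the 13 genes rose, Ctsl (1.41 ± 0.21, edgeR adjusted p = 0.00321) and Ifi30, the lysosomal thiol reductase (1.43 ± 0.26, 0.026), and none was called at day 14. Over all genes, 0.145% were called at day 3. Leaving out any 1 mouse other than facial nucleus mouse 3 ended the call for Ifi30. In the differences between effects, 0.281% of all genes were called for demyelination against day 3 and 0.846% for remyelination against day 14. The effect of demyelination exceeded that of day 3 for Ctsd (2.88 ± 0.21, adjusted p = 8.22e-11) and Ctsb (2.60 ± 0.25, 5.07e-08), and that of remyelination exceeded that of day 14 for Ctsb (2.15 ± 0.25, 2.7e-06), Ctsd (1.86 ± 0.21, 2.11e-06) and Ctsl (1.41 ± 0.27, 0.00512). Among untreated regions Ctsd was the 1 gene of the list called, where 0.1% of all genes were.

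Of 16 genes of class II transcription and interferon-gamma signalling, all tested, 1 was called in each cuprizone stage and it fell: Ifngr1, a chain of the interferon-gamma receptor (-1.48 ± 0.27 in demyelination, edgeR adjusted p = 0.00417, and -1.07 ± 0.27 in remyelination, 0.0417). With 5.16% and 3.12% of all genes called, 1 call among 16 is close to the background, so the list gives no result of its own. The Ifngr1 call in remyelination was lost in 8 of 21 alternatives, 7 of which left out 1 mouse. Of 18 interferon-gamma-induced genes 11 were tested, and the immunoproteasome gene Psmb8 alone rose, in remyelination (1.62 ± 0.34, adjusted p = 0.0128; the call was lost without corpus callosum mouse 2). The list medians in remyelination were -0.13 and -0.42. None of the other class II chain genes H2-Ea-ps, H2-Eb2, H2-DMb2, H2-Oa, H2-Ob and H2-Pa was called in any comparison. H2-Ob, the beta chain of the H2-O pair that restrains H2-DM, stood at 52.5 ± 13 to 156 ± 113 CPM over the groups, and H2-Oa, its alpha chain, at 3.07 ± 2.3 CPM in demyelination against 14.9 ± 12.3 in untreated corpus callosum.

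Genes most like the 4 classical ones over all groups were sought by Spearman correlation, across the 40 sums, of each of 11364 genes with the mean log2 level of Cd74, H2-Aa, H2-Ab1 and H2-Eb1. The first 10 were Spp1 (0.81), Fth1 (0.81), Rps9 (0.77), Clec7a, Rpl32 and Lyz2 (0.76 each), B2m (0.75), Gm3511, Crip1 and Cd52 (0.74 each). B2m, the light chain of MHC class I, had a mean of 1878 CPM in untreated corpus callosum, 6127 in demyelination and 7814 in remyelination. Spp1, which encodes osteopontin, went from 23.4 to 20504 and 10608 CPM, and Clec7a, a beta-glucan receptor, from 0.0226 to 957 and 989 CPM. Spp1, Rpl32 (546 and 393 CPM) and Cd52 (695 and 441 CPM) were higher in demyelination than in remyelination by their means, the opposite order to Cd74. The cuprizone sums, all from 1 plate, weigh heavily in such ranks.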

How the data were processed

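Single microglia were sorted into plates and sequenced with Smart-seq2, a full-length method without molecular identifiers that does not mark strand, per the labels' protocols. The values the authors deposited are raw read counts for each gene in each well, not normalized. STAR 2.5.2b, featureCounts 1.5.1 and build GRCm38 are named in the submitters' processing notes; the annotation release is not given in the sources used here, nor is the strand setting. Of 48709 gene entries, 48349 matched a name. Cells were kept with at least 20000 gene counts, 500 genes, under 25% mitochondrial and under 50% spike-in counts. Sums per mouse and group were tested with edgeR 4.0.16 in R 4.3.3 (TMM scaling, minimum count 10, minimum total count 15, robust quasi-likelihood F test, Benjamini-Hochberg over all genes tested, threshold 0.05); scripts were tested on simulated data. Untreated regions, axotomy groups with facial nucleus and cuprizone groups with corpus callosum were fitted separately, and both injuries together for the differences between effects. Levels are CPM scaled over all 40 sums; folds in the text come from the fits.

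Named beside the members were genes of 4 related lists past the threshold (at most 8 a comparison), H2-Ea-ps, Ctss and Ifngr1, the 10 genes most like the 4 classical ones, called genes in class II-high cells, and the 5 most abundant genes of a marker list. Apoe, Lyz2, Cybb and Cx3cr1 in class II-high cells, H2-DMb2, H2-Ob, H2-Oa, markers at 0 and the day 3 cell were picked after their values were seen, as was the minimum of 10 reads. Members and lists were chosen with earlier results of these data known. Alternatives were upper-quartile and RLE scaling, DESeq2 1.42.0, no or stricter filters, thinning, other sample sets, a replicate block and leaving out each mouse. Reads without molecular identifiers are not independent molecules, so floors cover counting error only.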

Additional observations from a re-analysis of the deposited data

Results flagged for a closer look

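Of 69 sets of 4 mice (a gene in a group), 13 held a mouse whose gap to the nearest other exceeded Dixon's 95% critical value. That value is passed in about 1 set in 20 only if values are normally distributed. These levels are skewed, and a set with 3 mice at 0 and 1 above always passes it. The number of flags is therefore not a measure of excess over chance. Cd74 at axotomy day 3 was 572 CPM in mouse 4, with the next mouse at 40.1, and H2-Aa (268 CPM, next 7.85) and H2-Eb1 (102 CPM, next 2.69) were flagged in the same mouse, whose single class II-high cell held nearly all these reads. In demyelination mouse 3 was flagged for H2-Aa (373 CPM, next 53.1), H2-Eb1 (78.1 CPM, next 3.39) and Ciita (36.7 CPM, with 0 in the others). H2-Eb1 was 249 CPM in remyelination mouse 4, with the next at 34.8, and 23.9 CPM in hippocampus mouse 4, with the next at 2.33. Among untreated mice at low levels, H2-Aa was 2.44 CPM in cortex mouse 1, 6.44 in cerebellum mouse 1 and 5.61 in facial nucleus mouse 2, each beside 3 mice at 0. Cortex mouse 3 was flagged for H2-Ab1 (47.2 CPM, next 15.1) and H2-Eb1 (2.32 CPM, next 0.284).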

How the results depend on the processing

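Of 829 values of named genes under an alternative, 748 kept their direction and side of the threshold, 51 lost a call, 29 gained one and 1 changed sign: Cd74 at axotomy day 3, -0.74 on the log2 scale without mouse 4 (-0.74 to 2.63 without 1 mouse). Of 280 counts and shares, 240 stayed within 1.5 times the main count or 1 SD. The number of members called in demyelination, 1 as reported, was 3 without the filter on low counts and with DESeq2, 2 without the cell filter and in a fit of the 2 groups compared, 0 with at least 100000 counts per cell, after thinning, with all 10 groups and with the replicate block, and 0 to 1 without 1 mouse. In remyelination, 2 as reported, it was 4 without the low-count filter and with DESeq2, 1 with the replicate block, and 1 to 3 without 1 mouse. Between the 2 stages it was 3 without the low-count filter and with DESeq2 instead of 0. Among regions it was 1 after thinning and 2 with DESeq2 instead of 0, 1 with DESeq2 between cortex and hippocampus (H2-Aa, against a group at 0), and 2 with DESeq2 for the remyelination against the day 14 effect. With member reads under 10 in a cell set to 0, an alternative added after seeing the data, the 1 member called in demyelination was H2-Eb1 in place of Cd74, and 3 were called in remyelination. The cause of these changes was not tested.

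The genes called between class II-high and other cells, 1 as reported, were 4 with 2 of the 4 genes required, with full counts and with upper-quartile scaling, 7 with another random seed, 2 without the low-count filter, 0 without the replicate block and with DESeq2, and 0 to 9 without 1 mouse. The share of remyelination cells with a Cd74 read was 85.1% without thinning and 47.5% to 63.1% without 1 mouse. Requiring all 4 genes left 1 mouse and requiring 10 cells left 2, so these splits were not run. Mouse numbers were not taken to pair the samples: over 84 pairs the correlation of deviations was -0.01 to 0.04. Such a correlation does not settle whether regions share mice. After thinning, mouse 3 had the lowest and mouse 4 the highest share of cells with an H2-DMb2 read in all 6 untreated regions. These shares were 9.3% and 40% in cortex and 6.52% and 45% in corpus callosum. Whether mice were shared was not tested. The replicate block changed no other call of a member.

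Counts over all genes moved too. DESeq2 called 200 genes among regions against 23, 767, 788 and 372 between the regions of a plate against 0, 1 and 0, 343, 181 and 237 after axotomy against 28, 0 and 5, 596 between the cuprizone stages against 6, and 2385 and 2870 for the differences of effects against 64 and 193. Without the low-count filter 57 genes were called among regions, 92 at day 3, 16 at day 14, 83 between the days and 114 between the cuprizone stages, and 97 and 314 for the effects. A fit of all 10 groups called 1184, 747 and 101 in the cuprizone comparisons and 23 between the days, a fit of the 2 groups compared 1407 and 831, and the replicate block 447 in demyelination, 39 among regions and 104 for the remyelination against day 14 effect. For the demyelination against day 3 effect, 103 genes were called with RLE scaling, 113 with all 10 groups and 125 after thinning, and for the remyelination against day 14 effect 1.9 times the 193 reported with upper-quartile scaling and 97 genes with at least 100000 counts per cell. Scaling by RLE moved the median of all genes by -0.25 in demyelination, -0.17 in remyelination and -0.32 in the remyelination against day 14 effect, where 32.2% of calls were higher against 50.8%, and 35.0% against 60.9% for the other effect. Depth limits statements on H2-Aa, H2-Eb1 and Ciita in untreated mice, whose sums often hold few or no reads.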
